A study of Mus musculus with 2 samples.

Results

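The 10 genes described here encode the interleukin 1β (IL-1β) system and the inflammasome: the cytokine Il1b, its antagonist Il1rn, the receptors Il1r2 and Il1rap, the sensor Nlrp3, the adaptor Pycard, the caspases Casp1 and Casp4, the pyrin gene Mefv and the pore former Gsdmd. They were chosen by name, with earlier results of these data known, and all 10 were found among the 32285 genes of the count matrix. The cells were osteal macrophages (Omacs), as the labels call cells sorted from bone tissue, taken from female BALB/c mice after ovariectomy (OVX) or sham surgery. Surgery was at 10 weeks of age, and cells were collected 4 weeks later from femurs and vertebrae by trypsin and overnight collagenase digestion at 37°C and sorting with antibodies to CD11b, F4/80 and CD68. Each condition was 1 pool of 20 mice marked with its own hashtag antibody, and both pools were run together in 1 droplet library, so there was no replicate and no test of OVX against sham.

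Inflammatory cells make IL-1β as an inactive precursor in the cytosol. In the best known route, NLRP3 or pyrin assembles with the adaptor ASC (Pycard) and activates caspase 1, which cuts the precursor and gasdermin D, and the gasdermin pore lets the cytokine out. Caspase 11, the product of mouse Casp4, cuts gasdermin D directly after it senses bacterial lipopolysaccharide, and in neutrophils serine proteases can also cut the precursor. The signal is received by IL1R1 together with its partner IL1RAP, is blocked by the antagonist IL-1RN and is soaked up by the decoy receptor IL1R2. IL-1β is known in bone for its stimulation of osteoclasts.

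The library held 17681092 gene UMIs (unique molecular identifiers, each counting 1 captured RNA molecule) in 2349 barcodes, with a median of 4387 UMIs. Hashtags assigned 1059 barcodes to OVX and 981 to sham, while 78 carried both and 231 neither. The clustering did not use the 10 genes or the 52 other genes of the pathway. Of the 8 clusters, 6, with 2021 cells (86.0%), were neutrophil-like: the summed level of 12 neutrophil markers ran from 136333 to 376620 UMIs per 1000000 (CPM) in them, against 3877 CPM in the stromal cluster. The data went against the label macrophage there: 13 macrophage markers summed to 52.5 to 171 CPM in these clusters, and C1qa, C1qb, C1qc and Cd163 were at 0 in all 6.

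The neutrophil-like clusters were named by fixed marker genes, except the last, which was named by its leading gene Gm42418. The early cycling cluster (21 cells) carried the primary granule genes Elane and Prtn3, and the immature cluster (259 cells) the secondary granule genes Camp and Ltf. The Retnlg-high (611 cells) and stefin-high (352 cells) clusters had the highest levels of Retnlg (20835 and 15121 CPM), a gene of mature neutrophils, and the activated cluster (533 cells) was led by genes such as Jaml, Ccl3 and Ccl4. A shallow cluster with a median of 2342 UMIs was led by Gm42418 (245 cells). Outside the neutrophils stood a stromal cluster with Prg4 and Dcn (210 cells) and a mixed cluster with Pf4, Arg1, Cd74 and H2-Aa (118 cells, called Pf4-Arg1), in which 26 cells had over 50% mitochondrial UMIs and macrophage markers summed to 5221 CPM, mostly Arg1 (3978 CPM). Hashtags placed 306 stefin-high cells in OVX and 35 in sham, whereas the activated cluster held 281 and 231.

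Promoters of 4 genes are shown because their genes carried the largest contrasts below: Il1b between clusters, and Il1r2, Casp4 and Mefv between OVX and sham. Each run is 250 bases before and 50 after a RefSeq start (GRCm38.p6), 5′ to 3′ on the gene's strand. Il1b lies at chr2:129371090-129371389 on the minus strand, Il1r2 at chr1:40085843-40086142 on the plus strand, Casp4 at chr9:5308599-5308898 on the plus strand and Mefv at chr16:3718075-3718374 on the minus strand. The Il1r2 start used by RefSeq lies inside the GENCODE gene, which begins at 40074079. Capitals mark TATAAA or the κB motif, searched on both strands together with TTGCNNAA for C/EBP factors, GAGGAA for ETS factors such as PU.1, TGANTCA for AP-1, and the motifs named cyclic AMP response element and estrogen response element.
Il1b: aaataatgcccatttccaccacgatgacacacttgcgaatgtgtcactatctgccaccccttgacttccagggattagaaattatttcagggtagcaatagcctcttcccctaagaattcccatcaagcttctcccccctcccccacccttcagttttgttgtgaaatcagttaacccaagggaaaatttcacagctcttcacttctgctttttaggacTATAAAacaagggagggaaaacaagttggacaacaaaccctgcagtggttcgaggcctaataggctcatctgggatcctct
Il1r2: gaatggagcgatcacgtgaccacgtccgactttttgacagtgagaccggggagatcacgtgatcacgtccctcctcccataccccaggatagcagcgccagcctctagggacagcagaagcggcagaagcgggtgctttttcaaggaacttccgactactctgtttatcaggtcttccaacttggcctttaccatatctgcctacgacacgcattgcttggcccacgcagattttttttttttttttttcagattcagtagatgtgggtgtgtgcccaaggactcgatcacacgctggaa
Casp4: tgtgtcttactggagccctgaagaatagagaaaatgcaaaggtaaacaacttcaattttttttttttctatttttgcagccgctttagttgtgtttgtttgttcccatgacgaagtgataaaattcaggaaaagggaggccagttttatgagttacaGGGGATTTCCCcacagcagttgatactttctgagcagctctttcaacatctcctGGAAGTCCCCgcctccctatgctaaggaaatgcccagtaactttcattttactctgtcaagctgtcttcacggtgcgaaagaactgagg
Mefv: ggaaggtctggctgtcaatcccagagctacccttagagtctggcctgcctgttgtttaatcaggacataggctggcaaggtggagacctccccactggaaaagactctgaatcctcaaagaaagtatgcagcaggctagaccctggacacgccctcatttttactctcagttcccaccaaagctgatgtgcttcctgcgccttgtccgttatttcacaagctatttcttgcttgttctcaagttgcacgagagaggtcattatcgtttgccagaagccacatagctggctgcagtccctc
The Il1b window held TATAAA 31 bases before the start, a match that 13.6% of 32851 such windows had on either strand. The Casp4 window held 3 matches to the κB motif, of which those at 93 and 92 bases overlap and the other begins 39 bases before the start, and 8.46% of all windows held at least 1. The windows of Il1r2 and Mefv held none of the 7 motifs. The palindromic estrogen response element was in none of the windows of the 9 genes with an entry and in 0.07% of all windows. Gsdmd had no entry.

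Il1b, the cytokine itself, separated the neutrophil-like clusters more than any other of the 10 genes. Its level was 12.2 CPM in the early cycling cluster (95% interval 4.48 to 26.6, exact Poisson), 56.1 CPM in the immature, 246 CPM in the Retnlg-high, 242 CPM in the stefin-high, 176 CPM in the Gm42418-high and 807 CPM in the activated cluster (765 to 851). The activated cluster was therefore highest, 4.42-fold above the other neutrophil-like cells together (4.11 to 4.74), and only the Retnlg-high and stefin-high clusters were neighbours with overlapping intervals. Intervals of levels and ratios cover counting error alone, and those of shares the sampling of cells, since there is 1 library. The stromal cluster gave 4.20 CPM, and whether its own cells made this message was not tested.

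The activated cluster was also highest by the share of cells at matched depth. After each cell was thinned to 1000 UMIs, 36.0% of activated cells held an Il1b UMI (exact interval 31.7 to 40.4), against 16.2% of Retnlg-high, 18.2% of stefin-high and 6.77% of immature cells. Without thinning these shares were 53.3%, 38.0%, 59.1% and 25.1%, in which the deeper stefin-high cells, at a median of 7277.5 UMIs, passed the activated cells, at 2664. The thinned stromal share was 1.52% (unthinned 9.05%, median 19996.5 UMIs). The message was held unevenly by the cells. In the activated cluster the 10% of cells richest in Il1b held 60.8% of its UMIs, with up to 51 in 1 cell and a median of 2 in those that had any.

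Outside the neutrophils, the Pf4-Arg1 cluster held 522 CPM of Il1b (478 to 570), and 1 of its cells had 93 UMIs. This cluster was also where Il1a, the sister cytokine, was highest, at 23.7 CPM, against 1.96 CPM in neutrophil-like cells.

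Il1rn, which encodes the receptor antagonist, was the most abundant of the 10 genes and varied least among the 4 highest. It ran from 491 CPM in the early cycling and 661 CPM in the immature cluster to 1028 CPM in the Retnlg-high, 1073 CPM in the stefin-high, 1238 CPM in the Gm42418-high and 1284 CPM in the activated cluster, with the last pair not separable by their intervals. It was thus already present in the cells with granule genes, where Il1b was low. The number of Il1rn UMIs per Il1b UMI was 40.2 in the early cycling (18.2 to 111) and 11.8 in the immature cluster, 4.17 in the Retnlg-high, 4.43 in the stefin-high and 1.59 in the activated cluster (1.49 to 1.70). In the Pf4-Arg1 cluster the balance was the other way, at 0.302 (0.251 to 0.363). Each is a ratio of molecules captured at the 3′ end and needs no length correction, but whether the 2 genes are captured equally well was not tested.

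In the activated cluster, antagonist and cytokine messages were found in the same cells. Among thinned activated cells, Il1rn was detected in 60% of the 175 cells with an Il1b UMI and in 61.4% of the others. Il1r2 was detected in 33.1% and 21.9% of them, and Nlrp3 in 26.9% and 22.2%. Il1b and Casp1 UMIs stood together in 4 of these cells.

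The receptors divided between cell types. Il1r2, the decoy, was at 410 CPM in the Gm42418-high, 376 CPM in the activated, 272 CPM in the stefin-high, 261 CPM in the Retnlg-high, 139 CPM in the immature and 40.7 CPM in the early cycling cluster. Il1rap, the shared partner chain, had nearly the same order, from 28.5 CPM in the early cycling to 270 CPM in the activated cluster. Il1r1, the signalling receptor, was almost absent from these cells, with 10 UMIs in 2021 neutrophil-like cells (0.890 CPM) and 0 in the Pf4-Arg1 cluster, where 3 UMIs would be 3.10 CPM. In the stromal cluster it was at 51.7 CPM (45.9 to 58.1) and was detected in 50.5% of cells, without thinning. The cells that held Il1b, Il1rn and Il1r2 were therefore not those with Il1r1 message, and stromal Il1b, Il1r2 and Il1rap were at 4.20, 3.29 and 11.0 CPM. Stromal RNA was present at a low level in every neutrophil-like cluster, with Prg4 at 71.3 to 170 CPM there against 25948 CPM in the stromal cluster.

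**Figure D1:**
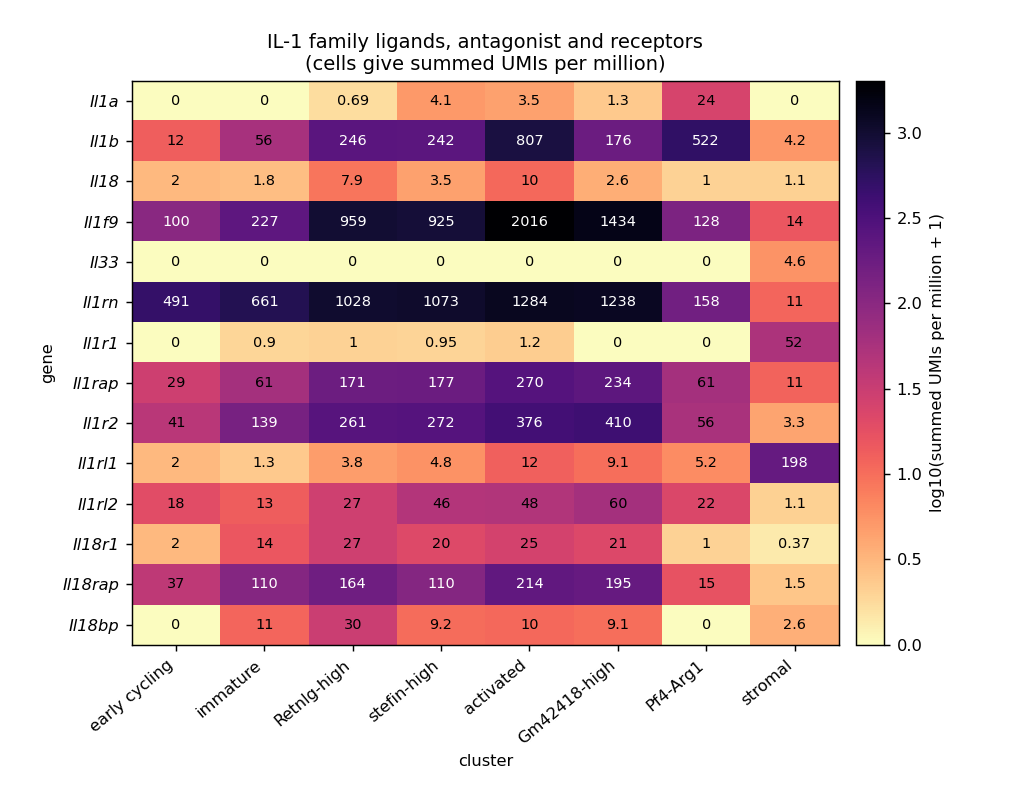
Heat map of summed UMIs in CPM for IL-1 family ligands, the antagonist and receptors (rows) in the 8 clusters (columns), with each value printed and the color on a log10 scale after adding 1. Il1rn is at 491 CPM or more in all 6 neutrophil-like columns, Il1b runs from 12.2 CPM in the early cycling to 807 CPM in the activated column, and Il1r1 (51.7 CPM) and Il1rl1 (198 CPM) stand out in the stromal column.

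Among other ligands and receptors of the family, Il1f9, which encodes IL-36γ, was of like abundance to Il1rn. It was at 960 CPM in neutrophil-like cells and reached 2016 CPM in the activated cluster (1949 to 2084). Its receptor Il1rl2 was at 34.6 CPM in neutrophil-like cells. Il18, which the inflammasome also matures, was at 5.16 CPM, although Il18rap, a chain of its receptor, was at 142 CPM. Il1rl1, the IL-33 receptor, was at 198 CPM in the stromal cluster and 5.07 CPM in neutrophil-like cells.

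Both sensors were highest in the activated cluster. Nlrp3 ran from 55.0 CPM in the early cycling and 69.1 CPM in the immature cluster through 142 CPM in the Retnlg-high and 132 CPM in the stefin-high to 304 CPM in the activated cluster (278 to 331). Mefv, the pyrin gene, was at 13.5 CPM in the immature, 21.4 CPM in the Retnlg-high, 30.5 CPM in the stefin-high, 60.1 CPM in the Gm42418-high and 135 CPM in the activated cluster (118 to 154). Mefv was also among the 10 leading genes of that cluster, although it did not enter the clustering. Aim2, a DNA sensor, was at 127 CPM in the activated cluster, while Nlrc4 was at 2.31 CPM in neutrophil-like cells.

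The adaptor and effectors did not share this order. Pycard was at 108 CPM in the early cycling, 106 CPM in the immature, 93.6 CPM in the Retnlg-high, 110 CPM in the stefin-high, 66.8 CPM in the activated and 58.8 CPM in the Gm42418-high cluster, so it was lowest where Nlrp3 and Mefv were high. Its level in the Pf4-Arg1 cluster was 214 CPM, of which 1 cell gave 55 of 207 UMIs. Casp1, the caspase that cuts the IL-1β precursor, was scarce throughout, at 7.62 CPM in the activated cluster (4.06 to 13), 16.1 CPM in the immature cluster (11.3 to 22.4) and 33.0 CPM in the Pf4-Arg1 cluster (22.6 to 46.6). Only 13 Casp1 UMIs were counted in 533 activated cells, against 519 of Nlrp3. UMIs of Nlrp3, Pycard and Casp1 were found together in 38 of the 2021 neutrophil-like cells, and in 1 activated cell, without thinning. These counts were not matched for depth. The immature cluster gave 12 of 259 cells at a median of 7476 UMIs, whereas activated cells had a median of 2664.

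Casp4 and Gsdmd, which act in pyroptosis, were low in every cluster, and their intervals overlapped between most of them. Casp4 was at 25.1 CPM in the stefin-high, 24.2 CPM in the immature, 22.3 CPM in the activated and 5.23 CPM in the Gm42418-high cluster, and 6.03 CPM in the stromal cluster. Gsdmd lay between 24 and 34.1 CPM in all 6 neutrophil-like clusters, whose intervals overlapped. The related pore former Gsdme was more abundant, at 113 CPM in neutrophil-like cells against 26.5 CPM of Gsdmd, a ratio of 4.28 (3.77 to 4.87). Casp1 and Casp4 are neighbouring paralogs on chromosome 9 (5298517 to 5307265 and 5308828 to 5336783), so their counts are uncertain where reads match both. Il1b, Il1r2, Il1rap and Pycard overlap genes annotated on the other strand. On the same strand, Il1r2 overlaps Gm37347 and Il1r1 overlaps Gm38070, and the effect on their counts was not tested.

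**Figure D2:**
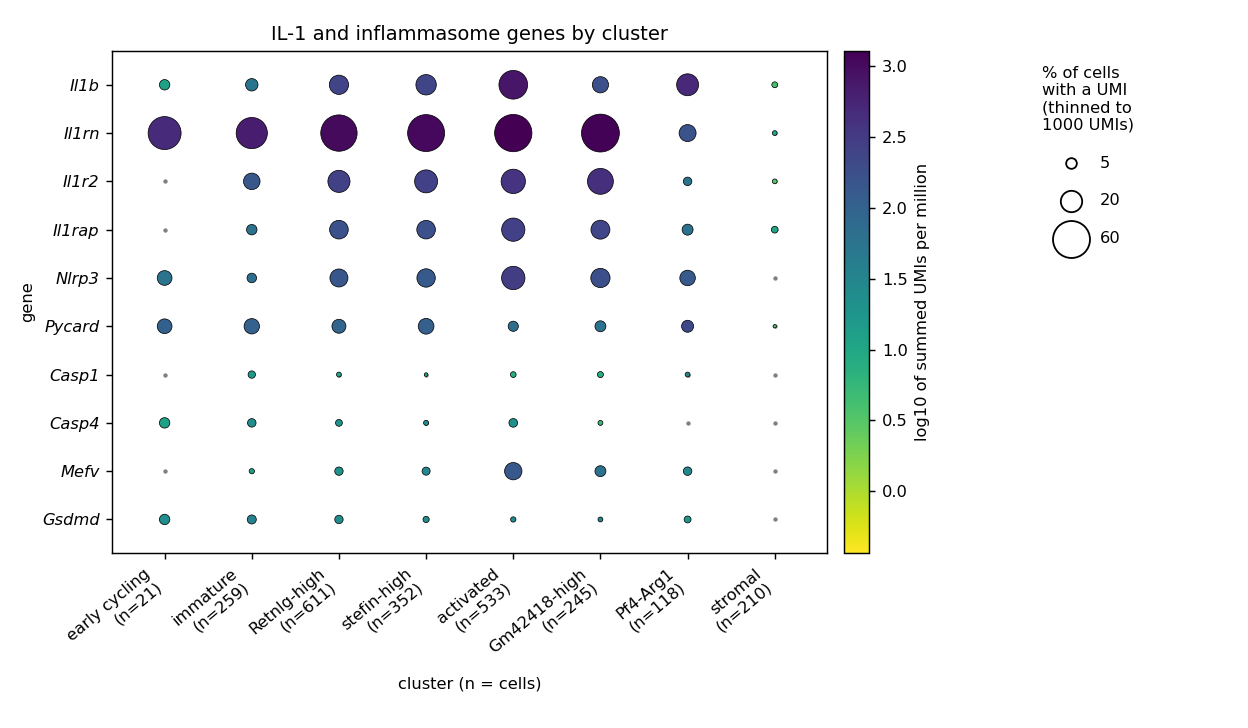
Dot plot of the 10 genes (rows) in the 8 clusters (columns, with cell numbers), where color is the log10 of summed UMIs in CPM and dot area the share of cells with a UMI after thinning to 1000 UMIs. Il1rn dots are large in all 6 neutrophil-like clusters, the Il1b, Nlrp3 and Mefv dots are largest in the activated cluster, and the Casp1 dots are small everywhere; a grey point marks no cell with a UMI after thinning.

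Of the 10 genes, 5 (Il1b, Il1r2, Il1rap, Nlrp3 and Mefv) were at least 1.5-fold higher in the activated cluster than in the other neutrophil-like cells, where 22.5% of 5802 genes at 10 CPM or more were. The ratios were 4.42 for Il1b, 5.42 for Mefv (4.5 to 6.52), 2.53 for Nlrp3 (2.28 to 2.81), 1.86 for Il1rap (1.67 to 2.07) and 1.59 for Il1r2 (1.45 to 1.73). Only Casp1 was lower by that fold, at 0.666, with an interval that included 1 (0.344 to 1.19), beside 19.8% of genes. Pycard was just short of that limit, at 0.668, with an interval that excluded 1 (0.545 to 0.812). With equal weight for each cell the log2 ratio was -0.13 for Casp1 and -0.60 for Pycard. The ratio of Il1r2 was under 1.5-fold when each cell had equal weight and with 1000 variable genes. Scaling without the most abundant genes was not tried for this comparison, and Il1r2 and Pycard lie near the limit.

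Genes of like pattern were sought for those of the 10 with at least 500 UMIs, which left out Casp1, Casp4 and Gsdmd. They were found by Pearson's r of log2(CPM + 10) over the 14 combinations of cluster and condition with 20 cells or more. These groups come from 1 library and differ in depth, and r is a description. Il1b was most like Fcgr2b (r = 0.977), an inhibitory Fc receptor, followed by Slc11a1 and Clec4d. Nlrp3 was most like Ptafr (r = 0.989), the receptor of platelet activating factor, and Mefv most like Sema4d (r = 0.957). Il1rn was most like Il17ra (r = 0.995), the IL-17 receptor, although over the 10 neutrophil-like combinations alone r was 0.910. Il1rap had Il1f9 among its 3 closest (r = 0.982, and 0.983 in neutrophil-like combinations). Il1r2 was most like Lpcat2 (r = 0.979) and Pycard most like Cyba (r = 0.941), an NADPH oxidase subunit, but over the neutrophil-like combinations alone these fell to 0.848 and 0.80, and of the 3 genes closest to Pycard Tmsb4x was then the closest (r = 0.883).

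Between conditions, neutrophil-like cells were compared as 985 OVX cells against 865 sham cells. The question was whether the IL-1 and inflammasome messages differ in cells from ovariectomized mice. Of the 10 genes, 3 were 1.5-fold or more higher in OVX, namely Mefv, Casp4 and Il1r2, beside 6.89% of 5707 genes at 10 CPM or more, and 0 were lower by that fold, beside 10.2%. At 2-fold 0 were higher, beside 2.72%, and among genes at 100 CPM or more 1 of the 5 was higher by 1.5-fold (Il1r2), beside 5.84%, with 0 lower, beside 7.48%. The median log2 ratio of the 10 was 0.32, against -0.09 over all genes tested. The 10 genes were chosen with earlier results of these data known, so their counts beside all genes are not an independent comparison. The paper on these data had already named Casp4 and Mefv as higher in the macrophage subset it reported to increase after OVX. Median depth also differed, at 4579 UMIs in OVX and 3469 in sham. With 1 pool for each condition, a difference between pools cannot be told apart from an effect of surgery.

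Il1r2 showed the most even difference of the genes past 1.5-fold, over the clusters with 20 or more cells of each condition. Its level was 305 CPM in OVX cells and 193 CPM in sham cells of the neutrophil-like clusters, a ratio of 1.58 (1.46 to 1.72, exact conditional interval for counting error). By cluster its levels in OVX and sham were 156 and 123 CPM in the immature, 319 and 238 CPM in the Retnlg-high, 278 and 213 CPM in the stefin-high, 463 and 223 CPM in the activated and 453 and 251 CPM in the Gm42418-high cluster. It was higher in OVX in all 5 clusters with 20 or more cells of each condition, as 8.83% of genes were (0 of the 10 were lower in all 5, beside 7.08%), and the interval excluded 1 in all but the immature cluster. The difference was widest in the activated cluster, at 2.07-fold (1.72 to 2.51).

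Mefv had 53.1 CPM in OVX cells and 27.8 CPM in sham cells, a ratio of 1.91 (1.54 to 2.38). It too was higher in OVX in all 5 clusters, with 156 and 97.7 CPM in the activated, 33.5 and 9.0 CPM in the stefin-high, 26.2 and 18.6 CPM in the Retnlg-high, 18.3 and 9.99 CPM in the immature and 71.1 and 50.3 CPM in the Gm42418-high cluster. The interval excluded 1 in the activated (1.18 to 2.17) and stefin-high clusters, and the latter rested on 3 sham UMIs. When every cell was thinned to 1000 UMIs the log2 ratio of Mefv was 0.29 in place of 0.93, under the 1.5-fold limit.

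Casp4 had 25 CPM in OVX cells and 14.7 CPM in sham cells, a ratio of 1.70 (1.26 to 2.32). In the stefin-high cluster 74 UMIs were counted in 306 OVX cells and 0 in 35 sham cells, which is at least 2.37-fold higher by the lower end of the exact interval, and 2.99-fold when sham is set to a floor of 3 UMIs over the group. It was also higher in the activated cluster, at 30.2 against 9.31 CPM, and in the Retnlg-high cluster, at 27.2 against 14 CPM, while in the immature cluster it was at 25.7 and 24.5 CPM. The Gm42418-high cluster went the other way, at 5.61 against 7.18 CPM, from 3 and 1 UMIs. Without the stefin-high cluster the log2 ratio was 0.55 in place of 0.76, just under the limit.

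The summed level of Il1b differed less than 1.5-fold, but the share of cells that held it was higher in OVX. Il1b had 308 CPM in OVX cells and 262 CPM in sham cells, a ratio of 1.18 (1.09 to 1.27), and in the activated cluster it was at 827 and 791 CPM, a ratio of 1.05 (0.936 to 1.17). It was higher in OVX in 4 of 5 clusters, with intervals above 1 in the immature (81.9 against 42.7 CPM, 1.92-fold, 1.3 to 2.85), stefin-high (248.9 against 186 CPM, 1.34-fold, 1.03 to 1.77) and Gm42418-high clusters (193 against 79 CPM, 2.44-fold, 1.31 to 5.04, the latter from 11 sham UMIs). In the Retnlg-high cluster it was at 235 against 271 CPM (0.868, 0.735 to 1.02).

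After thinning to 1000 UMIs, 24.5% of 943 OVX and 15.5% of 787 sham neutrophil-like cells held an Il1b UMI (exact intervals 21.8 to 27.4 and 13 to 18.2). In the activated cluster this share was 43.3% in OVX (37.3 to 49.4, 268 cells) against 25.9% in sham (20 to 32.4, 205 cells). In the other 4 clusters compared the share thinned to 1000 UMIs was higher in OVX as well, but the intervals overlapped. Unthinned shares were 53.2% and 32.1% in all neutrophil-like cells and 64.4% and 40.7% in the activated cluster. The summed counts thinned to 1000 UMIs did not differ in this way, with a log2 ratio of -0.04 in all neutrophil-like cells. At 1000 UMIs a smaller share of sham cells thus held Il1b UMIs, and those that did held more of them on average.

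Il1rn differed little between conditions. It had 1028 CPM in OVX cells and 997 CPM in sham cells (ratio 1.03, 0.992 to 1.07), and in the activated cluster it was at 1186 and 1419 CPM (0.836, 0.767 to 0.912). The number of Il1rn UMIs per Il1b UMI in the activated cluster was 1.43 in OVX (1.31 to 1.57) and 1.79 in sham (1.61 to 2.00).

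The other genes had ratios under 1.5-fold. Il1rap had 185 CPM in OVX cells and 139 CPM in sham cells (1.33, 1.2 to 1.47). Its log2 ratio was 0.41 as reported, 0.22 with equal weight per cell and 0.12 with each cell thinned to 1000 UMIs. With all assigned cells it was 0.61, past 1.5-fold. Nlrp3 was at 150 and 155 CPM (0.969, 0.876 to 1.07). Pycard was at 98.3 and 91.1 CPM (1.08, 0.949 to 1.23) and Gsdmd at 27.3 and 26.6 CPM (1.02, 0.802 to 1.31). For Nlrp3, Pycard and Gsdmd the intervals included 1, and that of Gsdmd, with the fewest UMIs of these, was the widest. Casp1 was at 11.6 CPM (72 UMIs) and 8.56 CPM (36 UMIs), and its ratio of 1.35 had an interval from 0.892 to 2.07. This gene passed 1.5-fold under 3 alternatives, with a log2 ratio of 0.43 as reported, 0.89 with equal weight per cell, 0.90 with the same cluster shares in both conditions and 1.061 with each cell thinned to 1000 UMIs, where 15 OVX and 6 sham cells held a Casp1 UMI.

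**Figure D3:**
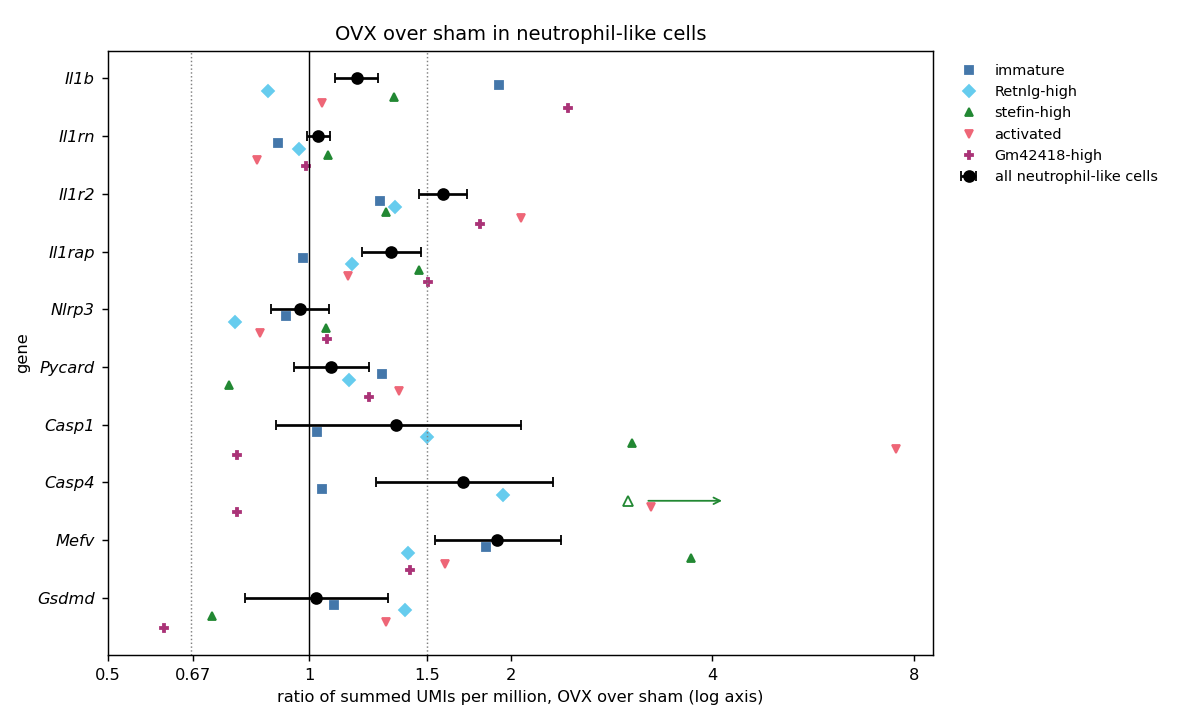
Ratio of summed UMIs in CPM in OVX over sham cells for the 10 genes, on a log axis; black points are all neutrophil-like cells with exact 95% intervals for counting error, and colored points are single clusters without intervals. The open triangle with an arrow is Casp4 in the stefin-high cluster, drawn at 2.99 with sham set to 3 UMIs in place of 0, the dotted lines mark 1.5-fold either way, and all 5 cluster points of Il1r2 and of Mefv lie above 1.

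In the Pf4-Arg1 cluster, 36 OVX cells and 62 sham cells were compared. Il1b was at 519 and 554 CPM, while Il1rn was at 324 and 94.7 CPM (3.42-fold, 2.44 to 4.82), Il1r2 at 158 and 16.8 CPM (9.43-fold, 4.78 to 20.3) and Pycard at 99.4 and 260 CPM (0.383, 0.245 to 0.577). The 170 sham UMIs of Pycard, against 27 in OVX, included those of the 1 Pycard-rich cell described above, an unevenness that the interval does not cover. The makeup of the cluster differed between conditions as well. Over 50% mitochondrial UMIs were found in 10 of the 36 OVX cells and 8 of the 62 sham cells. The neutrophil marker S100a8 stood at 16093 CPM in OVX cells and 5619 CPM in sham cells, Cd74 at 3651 and 153 CPM, and Arg1 at 2625 and 4586 CPM. The part of these in the differences of the IL-1 genes was not tested.

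**Figure D4:**
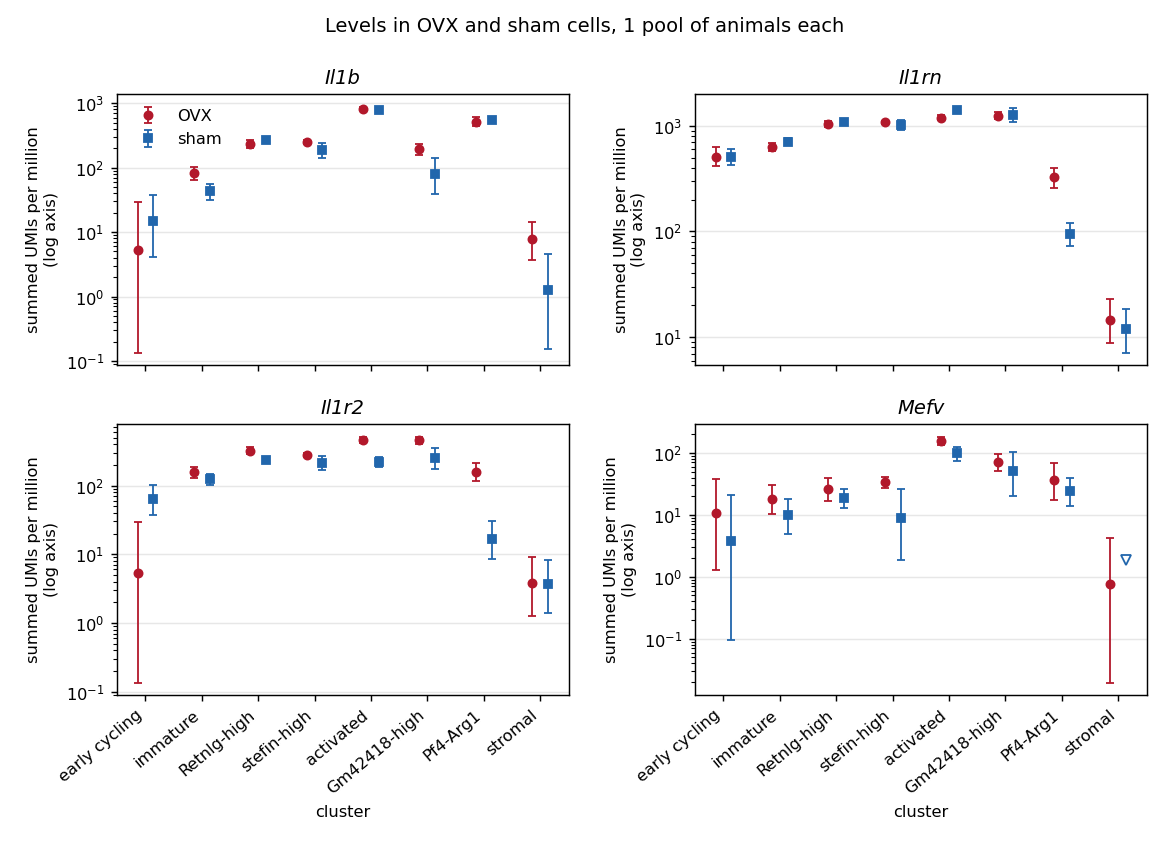
Levels of Il1b, Il1rn, Il1r2 and Mefv in summed UMIs in CPM (log axis) by cluster, for OVX cells (red circles) and sham cells (blue squares), with exact Poisson 95% intervals; an open triangle marks a count of 0, drawn at 3 UMIs. Il1b peaks at 827 and 791 CPM in the activated cluster in both conditions, and Il1r2 is higher in OVX from the immature to the Gm42418-high cluster.

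The wider pathway list, chosen with earlier results of these data known, had 28 of 52 genes at 10 CPM or more in OVX or sham neutrophil-like cells. Of these 28, 2 were 1.5-fold or more higher in OVX, beside 6.89% of all genes, and 5 were lower, beside 10.2%. The higher ones were the IL-36 receptor Il1rl2 (42 against 26.6 CPM) and Gsdme (131 against 86.6 CPM). The lower ones were Serpinb1a, an inhibitor of neutrophil proteases (296 against 466 CPM), the IL-18 binding protein Il18bp (10.6 against 16.7 CPM), the ATP receptor P2rx7 (4.81 against 19.5 CPM) and the proteases Elane (0.321 against 12.1 CPM) and Prtn3 (1.92 against 21.4 CPM). Elane and Prtn3 came mostly from the early cycling cluster (102 and 173 CPM), which held 10 cells of each condition. Serpinb1a was higher in the immature than in the activated cluster, and the immature cluster held 87 OVX and 130 sham cells. The part of this makeup in the pooled ratio of Serpinb1a was not tested. The receptor signalling genes Myd88, Irak1 and Irak4 had ratios of 0.972, 0.980 and 0.863, whose intervals all included 1. As a gauge of handling during digestion, 10 immediate early and heat shock genes were measured at this level. At 1.5-fold, 1 was higher in OVX (Fosb, 25.7 against 9.99 CPM), beside 6.89% of all genes. By the same fold 2 were lower (Atf3 and Hspa1a), beside 10.2%. Under that fold, Junb and Egr1 (1.35 each) were higher and Jun (0.889) and Fos (0.879) lower, with intervals that excluded 1.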

How the data were processed

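The authors aligned reads to mm10 with Cell Ranger (6.0.1 in the methods, 6.0.0 in the file header) and deposited whole-number UMI counts for 32285 genes and 2 hashtags in called barcodes, without normalization. The files of the second, hashtag library were not analysed here. Hashtag 1 marks OVX and hashtag 2 sham, and HTODemux (Seurat 5.3.0, R 4.3.3, positive quantile 0.99) assigned barcodes. The labels give 1037 OVX and 1084 sham cells loaded, and the OVX number is below the 1059 barcodes assigned to OVX here. Clustering used scanpy 1.11.5 and Louvain (igraph 0.11.9) on counts scaled to 10000, with 2000 variable genes, 30 components and 15 neighbors, leaving out the 10 genes and 52 pathway genes. The rule asked for 6 clusters, which no resolution gave, so the listed alternative of 7 was used, and the cluster highest in Mki67 and Top2a was split, giving 8. All 2349 barcodes were kept, and Scrublet marked 1 as a doublet. The 78 barcodes that carried both hashtags stayed in the cluster levels and in the counts of genes found together.

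CPM is summed UMIs scaled to 1000000. Intervals are exact at 95%. Those of levels and ratios cover counting error only, and those of shares the sampling of cells only. Ratios are CPM in OVX over sham, and genes at 10 CPM or more in either were counted at 1.5-fold. Shares used cells thinned to 1000 UMIs, which left out 171 of 2349 (47 activated, 26 Retnlg-high, 54 Gm42418-high). No p-value was made, with 1 pool for each condition. The calculations were tested on simulated data in which all cells of a condition shared 1 profile. That test did not cover the uneven spread of UMIs between cells. Members and lists were chosen with earlier results of these data known. Named were the 10 genes, pathway list genes at 10 CPM or more, fixed markers and the 3 genes most like each member with at least 500 UMIs; Il1a, Il18, Il1r1, Il1rl1, Nlrc4 and the list genes counted by fold were named after their values were seen. The values of 1 gene of the pathway list are not reported here. Gene positions are from GENCODE vM21 (GRCm38) and promoters from RefSeq.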

Additional observations from a re-analysis of the deposited data

Results flagged for a closer look

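The ratio of OVX to sham lay on opposite sides of 1, beyond counting error, in different clusters for 2 of the 10 genes. The share of all genes that do so was not computed, so this count says nothing particular about the 10. Il1rn was 3.42-fold higher in OVX in the Pf4-Arg1 cluster and at 0.836 of the sham level in the activated cluster. Il1r2 was higher in OVX in the Retnlg-high (1.34-fold), stefin-high (1.30-fold), activated (2.07-fold), Gm42418-high (1.80-fold) and Pf4-Arg1 clusters (9.43-fold), but at 0.0839 of the sham level in the early cycling cluster, where 1 UMI in 10 OVX cells stood against 17 UMIs in 10 sham cells. The differences between clusters were not tested, since each condition is 1 pool. The Pf4-Arg1 cluster also differed in makeup, with S100a8 at 16093 CPM in its OVX cells and 5619 CPM in its sham cells.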

How the results depend on the processing

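The count of 3 genes at 1.5-fold or more higher in OVX was 0 at a fold of 2 and 1 (Il1r2) among genes at 100 CPM or more, where the limits themselves leave fewer genes. Under the other 11 alternatives it was 2 to 4, with Casp1 among them under 3 (log2 ratios of 0.89 to 1.061), and no alternative put a gene lower in OVX by the fold used. The log2 ratio of Il1r2 ran from 0.59 to 0.97 and that of Casp4 from 0.55 to 1.25. For Il1rap it ran from 0.12 to 0.61, and the gene passed 1.5-fold with all assigned cells. The log2 ratio of Mefv ran from 0.29 (each cell thinned to 1000 UMIs, chosen after seeing the data) to 1.22 (without the stefin-high cluster, likewise), and the cause was not tested. The number of genes at 1.5-fold or more in the activated cluster was 4 to 6 under all 7 alternatives, with Il1b, Il1rap, Nlrp3 and Mefv always among them. Other alternatives chosen after the data were seen were leaving out the Gm42418-high cluster and 6 clusters with the 10 genes kept. The share of activated cells with an Il1b UMI was 22.5% when thinned to 500 UMIs, with 25.62% in OVX and 19.05% in sham. No paired analysis was possible because each condition is 1 pool in 1 library. Depth limits Casp1, Casp4, Mefv and Gsdmd most, with 122, 237, 469 and 298 UMIs in all neutrophil-like cells, where 3 UMIs, the floor used for a count of 0, are 0.267 CPM.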

Other observations

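Txnip, a binding partner of NLRP3, was at 458 CPM in neutrophil-like cells and 916 CPM in the activated cluster, and Ninj1, which ruptures the membrane of dying cells, was at 145 and 373 CPM. Serpinb1a had the opposite order, with 774 CPM in the immature and 83.2 CPM in the activated cluster.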
